A study of Mus musculus with 47 samples.

Results

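The genes described here are 40 listed genes of glycolysis and of the hypoxia response, out of 35856 gene symbols measured, and all 40 were found by symbol. They were divided by role into 16 glycolytic enzymes, 6 genes of glucose and lactate transport and of flux control, and 18 other targets of the hypoxia response. Polyadenylated RNA came from stem cells of C57BL/6 mouse embryos (ESC) and from cultures of neural progenitors (NPC) made from those. The 4 lines all carried Tir1, the plant receptor that directs degron-tagged proteins to destruction when auxin is added, so the controls carried it too. One line was untagged, and the others bore an auxin-inducible degron (AID) on a protein of the histone methyltransferase complex PRC2: SUZ12-AID on a core subunit, and MTF2-AID and AID-JARID2 on subunits of its alternative forms. Each line was left untreated or given 50 µM auxin, for 12 hours as ESC or 5 days as NPC. The ESC medium held 3 µM CHIR99021, 1 µM PD0325901 and LIF at 100 U/mL. NPC were given 10 ng/mL bFGF for 72 hours and then 500 nM SAG, a Hedgehog pathway agonist, for 48 hours. The 47 libraries make 16 groups of 3 biological replicates, except SUZ12-AID NPC with auxin, which has 2. The labels name no low-oxygen treatment, and they do not say how many clones stand behind a tagged line, so tag and clone cannot be told apart in comparisons of untreated lines.

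Glycolysis turns glucose into pyruvate through a chain of enzymes that starts with hexokinase and ends with pyruvate kinase, and lactate dehydrogenase A then turns pyruvate into lactate. The transcription factor HIF, a pair made of an oxygen-regulated alpha subunit and the constant partner Arnt, raises many of these genes together with genes for blood vessel growth, mitophagy and collagen modification. With oxygen present, prolyl hydroxylases mark the alpha subunit for destruction through Vhl, and several of these hydroxylases are HIF targets themselves. Naive stem cells and neural progenitors both carry out aerobic glycolysis. PRC2 places the repressive histone mark H3K27me3 and is best known for its action on developmental regulators.

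Values are TPM, each transcript's share of a library scaled to 1000000 and corrected for gene length, so levels of different genes can be set side by side. Depth was 3.24 to 8.71 M reads (1 M is 1000000) per library, recovered from the steps of the TPM values. Differences are limma log2 differences ± SE on log2(TPM + 0.5), where differences of low genes come out too small, and a gene is called at an adjusted p under 0.05 over all genes tested. The labelled stages matched their markers: all 8 of the neural progenitor markers and 0 of the 8 pluripotent markers rose from untagged ESC to untagged NPC, and all 8 of the latter fell. The degrons act on protein, and Suz12 RNA in SUZ12-AID ESC stood at 285 TPM untreated, against 313 TPM with auxin, and was not called.

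In untagged ESC the enzymes ranged from the most abundant of the 40 genes to some of the scarcest. Mean levels in untreated untagged ESC were 1880 ± 43.9 TPM for Pkm, pyruvate kinase, 1330 ± 19 for Aldoa, an aldolase, 1210 ± 18.6 for Eno1, an enolase, and 987 ± 31.8 for Gapdh (SD, n = 3). Ldha, lactate dehydrogenase A, stood at 470 ± 16.5 TPM and the glucose transporter gene Slc2a3 at 453 ± 9.9 TPM, which do not differ beyond their spread. At the low end were the enzyme isoforms Eno2, at 0.871 ± 0.259 TPM, and Aldoc, at 9.01 ± 1.39 TPM (SD, n = 3). Low too were Pfkfb4, a maker of the glycolysis activator fructose 2,6-bisphosphate, at 1.92 ± 0.355 TPM, and Ndufa4l2, a HIF-induced mitochondrial protein, at 0.789 ± 0.0215 TPM. Together the 16 enzymes held 0.774% of all TPM in untreated untagged ESC and 0.925% in untreated untagged NPC. The divisors of the median-of-ratios scaling described below ran from 0.883 to 0.906 in the first and 1.116 to 1.143 in the second. The direction of this difference therefore depends on the scaling. The ratio of the highest to the lowest of the 16 group means was 1.52 for Gapdh and 1.53 for Pkm, the smallest of the 40, and 19.1 for the lactate exporter gene Slc16a3.

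Most of these genes differed between stages, and enzymes of the same step, phosphofructokinase and aldolase, moved in opposite directions. From untreated untagged ESC to untreated untagged NPC, 29 of the 40 members rose and 9 fell. Of the 17760 genes tested, 76.1% were called, 47.6% higher and 28.5% lower. The median log2 difference was 0.77 over the members and 0.28 over all genes. By role, 10 of the 16 enzymes rose and 6 fell, 5 of the 6 transport and flux genes rose and 1 fell, and 14 of the 18 other targets rose and 2 fell. A scaling to the median ratio of genes, which sets the shift of all genes from 0.28 to 0, left 21 members higher and 11 lower. Under it Gapdh and Eno1, called higher by 0.16 and 0.15, were called lower, with -0.18 and -0.19, and Pfkm, Aldoc, Pkm, Ankrd37, Ero1l and Hilpda lost their calls. All of these but Ankrd37, Ero1l and Hilpda are enzymes, so under scaling more enzymes were lower than higher. In bulk RNA, fewer cells of a type and less RNA per cell cannot be told apart, here or in any comparison that follows.

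Among the enzymes, the 3 phosphofructokinase genes, which encode the committed step, moved in different directions. Pfkp read 52.3, 49.3 and 49.2 TPM in untagged ESC and 7.3, 5.66 and 6.43 TPM in untagged NPC, and fell by 2.87 ± 0.1 (adjusted p = 3.37e-25). Pfkl went the other way, from 46.2, 41.7 and 45.2 TPM to 137, 123 and 111 TPM, a rise of 1.46 ± 0.08 (adjusted p = 1.5e-18). Pfkm rose from a mean of 39.5 to 52 TPM, a call lost under scaling. The ESC and NPC groups overlap in neither Pfkp nor Pfkl. The isoform with the highest mean was Pfkp in ESC, where Pfkl was close, and Pfkl in NPC. Differences between the isoforms were not tested. Pfkp shares exon bases with Pitrm1 on the opposite strand, and whether reads were counted by strand is not given in the sources used here. Hk2, an inducible hexokinase, fell by 1.86 ± 0.06, from a mean of 120 to 32.8 TPM (adjusted p = 6.27e-26), and Aldoa fell by 0.7 ± 0.05, from 1330 to 821 TPM (adjusted p = 2.69e-15).

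Tpi1 and Ldha, of later steps of the pathway, rose. Tpi1, triose phosphate isomerase, read 330, 347 and 343 TPM in untagged ESC and 904, 902 and 963 TPM in untagged NPC, a rise of 1.44 ± 0.06 (adjusted p = 5.89e-23). Ldha read 453, 486 and 470 TPM in ESC and 984, 1040 and 1060 TPM in NPC, a rise of 1.13 ± 0.08 (adjusted p = 1.13e-14). In both genes every NPC library lay above every ESC library. Tpi1 shares exon bases with Spsb2 on the opposite strand, and Ldha has 4 near-identical other genes in the annotation, so reads of these copies may be split between them. The widest family of copies was that of Gapdh, with 78 other genes at 95% identity or more over at least 200 bases, 4 of them among the symbols measured. Eno1b, such a copy of Eno1, reached 184 TPM in a library and Bnip3l-ps, one of Bnip3l, 41.7 TPM. Hk1, Pfkm, Aldoa, Gapdh, Ndufa4l2 and Ankrd37 also share exon bases with a measured gene on the opposite strand, and the values of all these members are uncertain to that extent.

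The glucose transporter genes moved in opposite directions. Slc2a3 (chr6:122727809-122801640, GRCm38), which encodes GLUT3, read 460, 442 and 457 TPM in untagged ESC and 36.3, 34.9 and 41 TPM in untagged NPC, and fell by 3.59 ± 0.09 (adjusted p = 3.2e-29). Slc2a1, which encodes GLUT1, read 217, 235 and 222 TPM in ESC and 471, 441 and 435 TPM in NPC, a rise of 1 ± 0.05 (adjusted p = 2.26e-21). Slc16a3, which encodes the lactate exporter MCT4, read 8.3, 7.86 and 5.05 TPM in ESC and 82, 81 and 78.5 TPM in NPC, a rise of 3.45 ± 0.15 (adjusted p = 8.05e-22). No ESC library overlapped an NPC library in any of these genes. Pdk1, a kinase that holds pyruvate back from the mitochondrion, rose from a mean of 5.99 to 19.6 TPM. Pfkfb3, which like Pfkfb4 makes fructose 2,6-bisphosphate, rose from 5.24 to 21.3 TPM, by 1.92 ± 0.11 (adjusted p = 9.46e-18).

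Other hypoxia targets mostly rose. Ddit4, an inhibitor of mTOR signalling, read 56, 53 and 46.5 TPM in untagged ESC and 277, 271 and 269 TPM in untagged NPC, a rise of 2.39 ± 0.08 (adjusted p = 4.76e-26). Egln1, the prolyl hydroxylase PHD2, read 15.3, 15.7 and 16.7 TPM in ESC and 71.8, 73 and 72.9 TPM in NPC, a rise of 2.16 ± 0.08 (adjusted p = 1e-24). The 3 NPC libraries stood apart from the 3 ESC libraries in both genes. The mitophagy receptor gene Bnip3l rose by 1.15 ± 0.06 (adjusted p = 1.54e-18), from 39.3 to 87.7 TPM. Its relative Bnip3 rose from a mean of 16 to 56 TPM, the vascular growth factor gene Vegfa from 29.1 to 63.1 TPM, and the collagen prolyl hydroxylase genes P4ha1 and P4ha2 from 13.8 to 40.2 TPM and from 5.22 to 22.8 TPM. The 2 that fell were Ak4, a mitochondrial adenylate kinase, from 108 to 24.8 TPM (-2.1 ± 0.08, adjusted p = 2.98e-24), and Kdm3a, a histone H3K9 demethylase, from 166 to 74 TPM (-1.16 ± 0.06, adjusted p = 3.67e-19). Car9, a carbonic anhydrase, and Adm, the peptide adrenomedullin, were not called, at mean levels of 0.257 to 0.643 TPM in these groups.

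**Figure D1:**
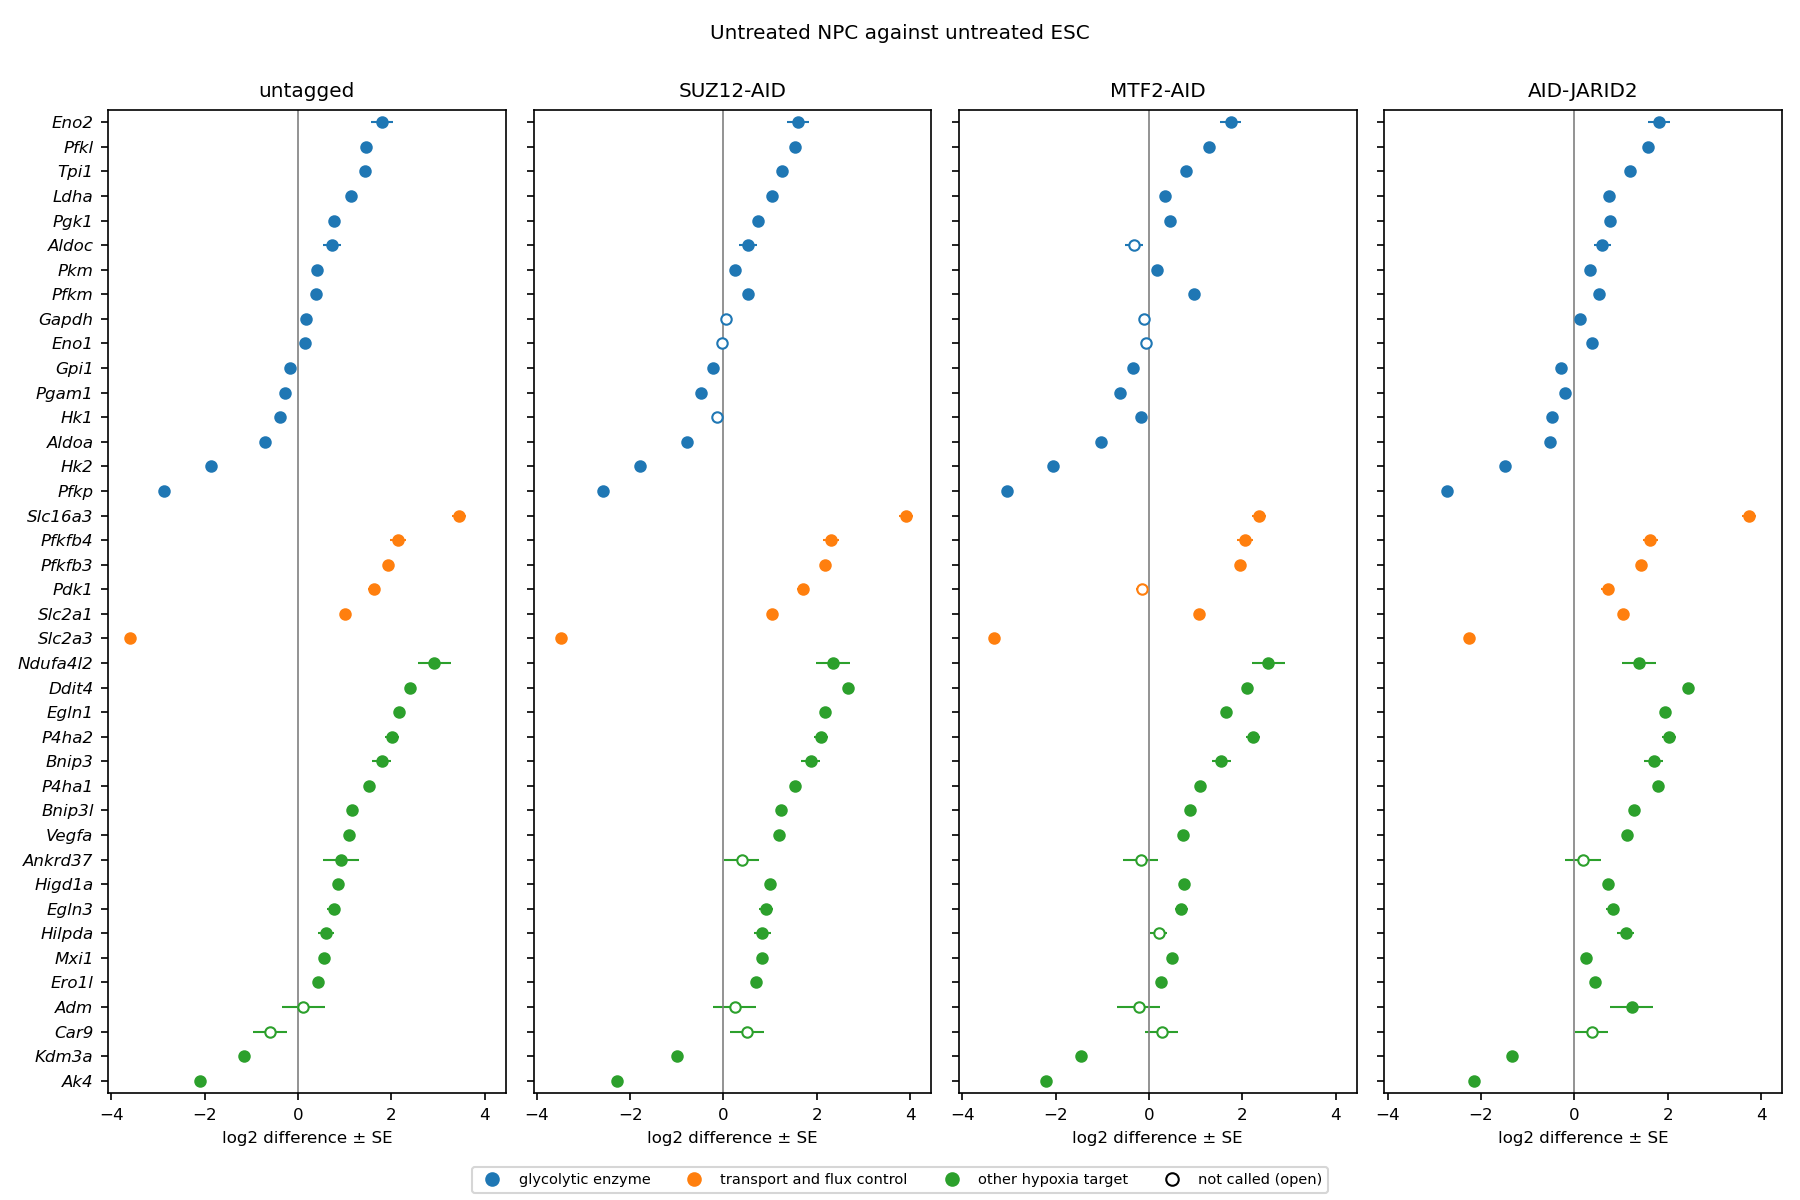
Log2 difference ± SE of untreated NPC against untreated ESC for the 40 members in each of the 4 lines (limma, log2(TPM + 0.5)), coloured by role; open circles were not called. Slc2a3 lies furthest to the left, at -3.59, and Slc16a3 furthest to the right, at 3.45, in the untagged line.

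Promoter sequences are shown for 6 of the members named here, from RefSeq for GRCm38.p6, because HIF is known to bind a short core sequence. All 6 hold a match, which some other members that changed do not. Each line gives the stretch free of annotated exons within the 250 bases before the first RefSeq start site, 5′ to 3′ on the gene's strand. Capitals mark the letters ACGTG or GCGTG on either strand (CACGT or CACGC on the strand shown), and CACGTG counts on both strands. The stretches lie at Ldha chr7:46845554-46845803, Slc16a3 chr11:120948817-120949052, Bnip3 chr7:138909520-138909756 (minus strand), Egln1 chr8:124949325-124949504 (minus strand), P4ha2 chr11:54100674-54100923 and Adm chr7:110627407-110627656.
Ldha: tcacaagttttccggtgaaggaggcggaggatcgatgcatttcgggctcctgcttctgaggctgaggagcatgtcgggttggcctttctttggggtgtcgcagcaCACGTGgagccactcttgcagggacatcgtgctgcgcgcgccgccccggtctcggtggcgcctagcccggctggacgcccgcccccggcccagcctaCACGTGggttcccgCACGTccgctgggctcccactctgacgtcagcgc
Slc16a3: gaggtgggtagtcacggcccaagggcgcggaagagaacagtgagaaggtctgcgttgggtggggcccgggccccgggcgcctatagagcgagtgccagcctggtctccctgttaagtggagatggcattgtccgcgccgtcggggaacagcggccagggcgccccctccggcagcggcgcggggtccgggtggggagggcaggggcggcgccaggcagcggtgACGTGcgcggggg
Bnip3: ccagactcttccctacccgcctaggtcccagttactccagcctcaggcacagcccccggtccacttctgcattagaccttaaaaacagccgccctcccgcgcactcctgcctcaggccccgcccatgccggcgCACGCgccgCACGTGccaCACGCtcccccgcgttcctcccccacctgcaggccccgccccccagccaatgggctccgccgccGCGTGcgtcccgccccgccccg
Egln1: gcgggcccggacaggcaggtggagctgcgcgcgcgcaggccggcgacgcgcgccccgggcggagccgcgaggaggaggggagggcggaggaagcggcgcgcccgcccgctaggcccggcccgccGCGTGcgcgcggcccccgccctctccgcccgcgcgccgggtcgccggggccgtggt
P4ha2: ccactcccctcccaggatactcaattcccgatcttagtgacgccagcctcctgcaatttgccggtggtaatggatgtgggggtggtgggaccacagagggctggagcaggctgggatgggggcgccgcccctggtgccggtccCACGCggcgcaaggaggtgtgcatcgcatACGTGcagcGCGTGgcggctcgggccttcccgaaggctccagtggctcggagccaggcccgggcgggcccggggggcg
Adm: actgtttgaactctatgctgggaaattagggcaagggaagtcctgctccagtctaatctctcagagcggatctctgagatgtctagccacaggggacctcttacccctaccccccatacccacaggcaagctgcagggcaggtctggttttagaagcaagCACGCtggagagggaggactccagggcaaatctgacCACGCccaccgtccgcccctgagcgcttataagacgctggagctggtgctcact
The Ldha stretch has 5 such matches and all are ACGTG, and the Bnip3 stretch also has 5 of both kinds. The stretches of Slc16a3 and Egln1, shortened by annotated exons, have 1 each. In the full 250 bases Slc16a3 has 2 ACGTG, and Egln1 has 1 ACGTG and 1 GCGTG. The shares below are over the full 250 bases. Over the 37 members with a promoter in the table, 28 (75.7%) held either motif in the 250 bases, against 38.6% of 27025 promoters of all genes, with no matching for base composition. ACGTG alone was in 45.9% of the members' promoters and 16.6% of all, and GCGTG in 54.1% and 28.2%. By role either motif was in 10 of 16 enzymes (62.5%), all 5 transport and flux genes with an entry and 13 of 16 other targets (81.2%). Tpi1 has neither motif in its window, and Vegfa neither before its first start site but 1 of each before its second. Before its second start site Ldha has 0 ACGTG and 1 GCGTG. A match describes letters in this window and is not a measured binding site. The members were listed as glycolytic and HIF target genes, and the 27025 promoters were not limited to genes expressed here. The shares therefore describe the list and test nothing in these data. Slc2a3, Ndufa4l2 and Bnip3l have no full-length entry.

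Of the genes that control HIF itself, Hif1a, which encodes the widely expressed alpha subunit, rose from 49.2 to 73.1 TPM between untagged ESC and NPC, by 0.56 ± 0.07 (adjusted p = 7.52e-09). Epas1, which encodes HIF-2 alpha, went from 70.3 to 73.7 TPM across ESC libraries to 1.63 to 2.1 TPM across NPC libraries, a fall with a log2 difference of -4.96 ± 0.15 (adjusted p = 3.78e-27). Arnt fell from 46.2 to 35 TPM, while Arnt2, a relative of Arnt, rose from 0.909 to 47.6 TPM. In TPM the negative regulators rose. Vhl went from 23.6 to 46.9 TPM and Egln2, another prolyl hydroxylase, from 70.8 to 94.2 TPM. Hif1an, an asparagine hydroxylase acting on HIF, went from 29.4 to 64.7 TPM. Median-of-ratios scaling, which moves the shift of all genes from 0.28 to 0, makes each rise in this paragraph smaller. Its results for these genes are not given here, so the smaller rises, of Hif1a and Egln2, may depend on the scaling. Of the 17 tested genes of the HIF pathway list 8 rose and 6 fell, and of 37 further hypoxia targets that are not members 20 rose and 11 fell, where 47.6% of all genes rose and 28.5% fell. The mitochondrial side differed in direction: of 28 respiratory chain genes 5 rose and 16 fell, with a median log2 difference of -0.2, and Atp5b, a subunit of ATP synthase, went from 2410 to 1630 TPM. Of 14 tested other glycolytic isoforms 6 rose and 5 fell, among them Ldhb, the other main lactate dehydrogenase subunit, which fell from 359 to 94.8 TPM while Ldha rose.

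The difference between stages was also measured in the untreated tagged lines, and the difference between lines was not tested. In the SUZ12-AID line 26 members rose and 8 fell (76.8% of all genes, 50.2% higher and 26.6% lower). In the MTF2-AID line 23 rose and 9 fell (74.9% of all genes, 48.2% higher and 26.7% lower). In the AID-JARID2 line 29 rose and 9 fell (73.4% of all genes, 47.1% higher and 26.3% lower). Of the 38 members called in the untagged line, 34 were called in the same direction in the SUZ12-AID line, 32 in the MTF2-AID line and 37 in the AID-JARID2 line, and 0 in the opposite one. Those not called were Hk1, Gapdh, Eno1 and Ankrd37 in the SUZ12-AID line, Aldoc, Gapdh, Eno1, Pdk1, Ankrd37 and Hilpda in the MTF2-AID line, and Ankrd37 in the AID-JARID2 line, where Adm was called in addition. Slc2a3 was 413 TPM in ESC and 37.2 TPM in NPC of the SUZ12-AID line, 444 and 44.4 TPM in the MTF2-AID line, and 564 and 119 TPM in the AID-JARID2 line. Ldha was 425 and 883 TPM in the SUZ12-AID line, 380 and 484 TPM in the MTF2-AID line, and 524 and 881 TPM in the AID-JARID2 line. Median-of-ratios scaling gave 23 higher and 12 lower, 18 and 14, and 23 and 10 members in these lines, and Pkm changed direction in the SUZ12-AID and MTF2-AID lines (from 0.24 to -0.18 and from 0.17 to -0.19), as did Gapdh in the AID-JARID2 line (from 0.13 to -0.2).

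Among the NPC auxin comparisons of the 4 lines, the SUZ12-AID line had the highest count of called members. With 5 days of auxin, 8 of the 40 members rose and 21 fell in SUZ12-AID NPC. Of the 16469 genes tested, 56.9% were called, 23.9% higher and 33% lower. The median log2 difference was -0.16 over the members and -0.1 over all genes. The enzymes divided into 4 higher and 7 lower of 16, transport and flux genes into 1 higher and 3 lower of 6, and other targets into 3 higher and 11 lower of 18. Median-of-ratios scaling left 9 higher and 13 lower, and 21 calls were the same in direction. Gpi1, Gapdh, Pgk1, Pkm, Slc2a1, Bnip3, P4ha1 and Higd1a lost their calls under it.

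Slc2a3, the member with the smallest p, read 35.3, 30.6 and 45.7 TPM untreated and 212 and 209 TPM with auxin, a rise of 2.51 ± 0.13 (adjusted p = 1.63e-12). Both auxin libraries lay above all 3 untreated ones and below every ESC library of the line, which ran from 401 to 445 TPM. Nanog, a pluripotency factor on chromosome 6, was named here for its position after its values were seen. It read 1.71 TPM untreated and 116 TPM with auxin. Nanog lies 13.2 kb from the 3′ end of Slc2a3, which is on the minus strand, and further from its start. Dppa3, Gdf3 and Apobec1 lie on the same side, at 97.5, 118 and 125 kb, and their values are not given here. A link between Slc2a3 and Nanog was not tested. Among the enzymes Pfkp read 7.89, 6.57 and 8.82 TPM untreated and 19.2 and 18.3 TPM with auxin, a rise of 1.23 ± 0.15 (adjusted p = 3.65e-07). Aldoa rose from 727 to 978 TPM (0.43 ± 0.07, adjusted p = 3.06e-05) and Hk2 from 32.8 to 45.5 TPM (0.47 ± 0.09, adjusted p = 0.000113). Beyond the untagged line Slc2a3, Pfkp and Aldoa were called, and Hk2 was called only under median-of-ratios scaling. Tpi1 fell by 0.52 ± 0.08, from 777 to 538 TPM (adjusted p = 7.52e-06), and Pfkm by 0.33 ± 0.08, from 47.1 to 37.3 TPM (adjusted p = 0.000797). Slc2a3, Pfkp, Aldoa and Hk2 are among the 9 that were lower in untagged NPC than in untagged ESC: of those 9, 5 rose with auxin (Hk2, Pfkp, Aldoa, Slc2a3 and Ak4), 3 fell (Hk1, Gpi1 and Kdm3a) and Pgam1 was not called. Of the 29 that were higher in untagged NPC, 2 rose (Eno1 and P4ha2), 18 fell and 9 were not called. Over all genes, 59.7% of those lower in untagged NPC rose with auxin and 4.82% fell, and of those higher 8.26% rose and 57.1% fell. The members' shares of 55.6% and 33.3%, and of 6.9% and 62.1%, were near these except for the 3 of 9 that fell.

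Of the 18 other targets 11 fell, and Vegfa had the smallest p among all members that fell. It read 58.3, 62.4 and 61 TPM untreated and 30.5 and 30.6 TPM with auxin, a fall of 0.97 on the log2 scale (SE 0.08, adjusted p = 1.26e-09). Kdm3a read 72.3, 71.5 and 77.8 TPM untreated and 44.6 and 44.3 TPM with auxin, and fell by 0.73 ± 0.07 (adjusted p = 2.7e-08). Both genes had auxin values well under their untreated range. Ddit4 fell by 0.6 ± 0.06 (adjusted p = 6.39e-08), from 291 to 191 TPM. Egln1 went from 71.8 to 44.5 TPM and Mxi1, a MYC antagonist, from 20.6 to 10.2 TPM. Of the flux genes Pfkfb4 fell by 1.41 ± 0.15, from a mean of 10.3 to 3.63 TPM (adjusted p = 6.36e-08), and Pfkfb3 by 0.49 ± 0.12, from 20.5 to 14.5 TPM (adjusted p = 0.00129). Pfkfb3 lost its call without SUZ12-AID NPC auxin replicate 1, with an adjusted p of 0.0637.

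Against this direction, Adm, P4ha2 and Ak4 rose. Adm read 0.245, 1.41 and 0.762 TPM untreated and 11.5 and 10.9 TPM with auxin, from 9 and 79 reads, a rise of 3.26 ± 0.59 (adjusted p = 8.42e-05). Corrected for depth, the ratio of reads was 15.8 (exact 95% interval 7.94 to 35.9, counting error only). P4ha2 read 23.5, 23.9 and 31.1 TPM untreated and 56.1 and 50.5 TPM with auxin, a rise of 1.02 ± 0.15 (adjusted p = 5.25e-06). Neither of these had overlapping groups, and both reached their highest group mean of the 16 here. Ak4 rose from 22.9 to 36.6 TPM (0.67 ± 0.11, adjusted p = 3.61e-05). Ldha (883 and 800 TPM on average) and Slc16a3 (87.1 and 73.1 TPM) were not called.

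Cell type markers moved in the same libraries, and their part in these results was not tested. The summed level of 8 pluripotent markers was 27.9 to 36.9 TPM in untreated SUZ12-AID NPC and 722 to 723 TPM with auxin, and 7 of the 8 rose. That of 8 neural progenitor markers was 1660 to 1810 TPM and 187 to 198 TPM, and all 8 fell; that of 8 neuron markers was 3880 to 4090 TPM and 407 to 456 TPM, and all 8 fell. Mesoderm markers summed to 52.5 to 57.7 TPM and 284 to 289 TPM, with 4 of 5 tested higher and Mesp1 at 0 in both auxin libraries. Endoderm markers summed to 1.75 to 2.61 TPM and 29.4 to 31.1 TPM, with 3 of 5 tested higher. Neural crest markers summed to 3450 to 3740 TPM and 1720 to 2000 TPM, although 6 of 8 were higher and 1 lower. Endothelial and blood markers summed to 12 to 13.8 TPM and 48.9 to 50.5 TPM, with 4 of 7 tested higher and Hbb-bh1, Hba-x and Ptprc at 0 with auxin. Of the HIF genes, Epas1 rose from 3.29 to 14 TPM (adjusted p = 2.68e-07). Hif1an fell from 68.4 to 48.3 TPM and Vhl from 44.4 to 29.3 TPM. Hif1a went from 84.9 to 73.9 TPM, with an adjusted p of 0.0483, just under the threshold. Its results under the alternatives are not given here. Of 28 respiratory chain genes 10 rose and 3 fell, and Ldhb went from 86.3 to 238 TPM.

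**Figure D2:**
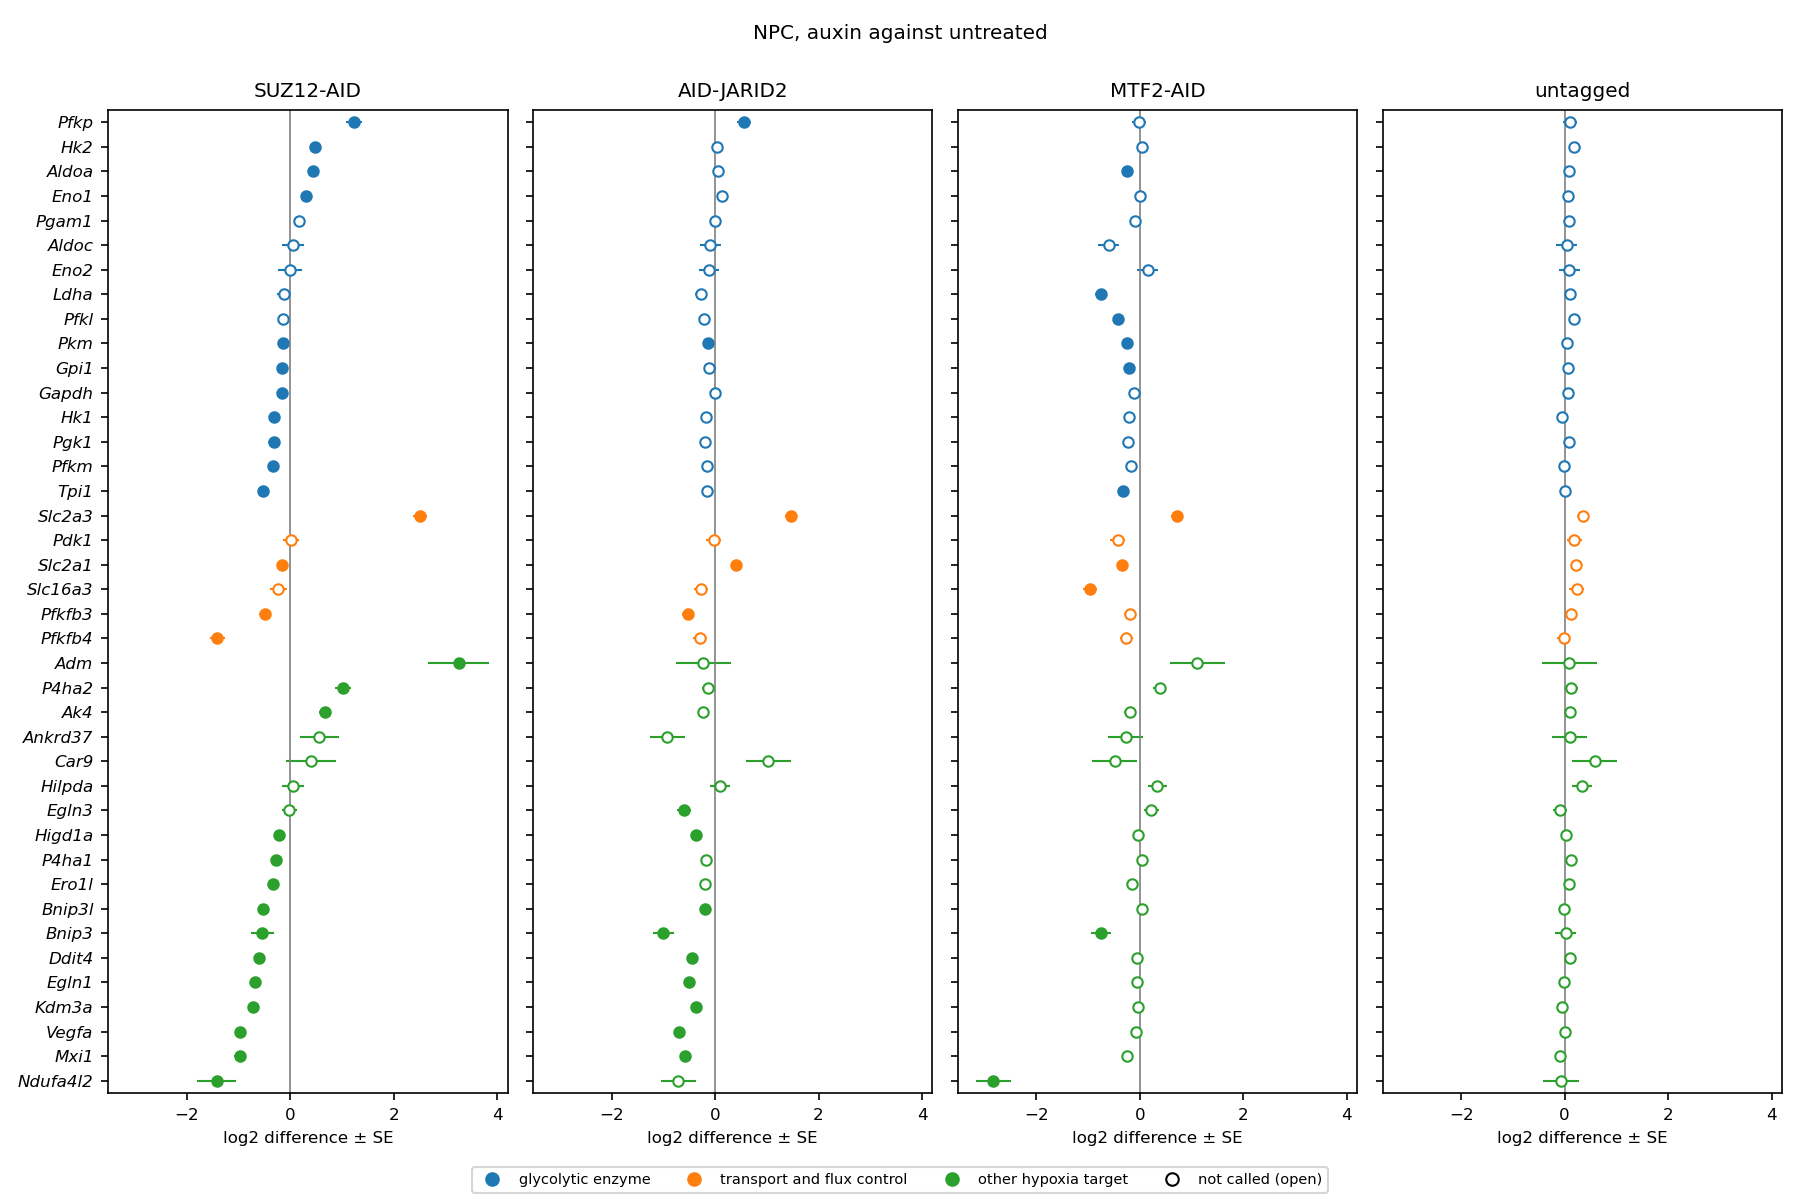
Log2 difference ± SE of auxin against untreated NPC for the 40 members in each line (limma, log2(TPM + 0.5)), coloured by role; open circles were not called. Slc2a3 is to the right of 0 in all panels and called in the 3 tagged lines, while no member was called in the untagged line.

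In AID-JARID2 NPC most of the members that fell with auxin were targets outside glycolysis. With auxin 3 members rose and 11 fell in AID-JARID2 NPC, where 25% of all genes were called, 9.28% higher and 15.7% lower, and the median log2 difference was -0.18 over members and -0.04 over all genes. Of the 18 other targets 0 rose and 9 fell, of the 16 enzymes 1 rose and 1 fell, and of the 6 transport and flux genes 2 rose and 1 fell. Vegfa read 59.5, 57.1 and 58.6 TPM untreated and 38.3, 35 and 33.9 TPM with auxin, and fell by 0.7 ± 0.07 (adjusted p = 1.98e-07). Ddit4 read 231, 246 and 256 TPM untreated and 174, 189 and 179 TPM with auxin, and fell by 0.44 ± 0.06 (adjusted p = 6.24e-06). Egln1 read 61.6, 64.5 and 60 TPM untreated and 40.7, 39.6 and 51 TPM with auxin, and fell by 0.51 ± 0.08 (adjusted p = 3.83e-05). No auxin library of these genes reached the untreated range. Bnip3 went from a mean of 44.3 to 22.2 TPM, Mxi1 from 12.7 to 8.31 TPM, Egln3, another oxygen-sensing prolyl hydroxylase, from 15.1 to 9.93 TPM, and Higd1a, a mitochondrial protein of the hypoxia response, from 42.3 to 32.5 TPM. Pkm, the 1 enzyme lower, differed by -0.14 ± 0.05 (adjusted p = 0.0458) and lost the call under 7 of 13 alternatives.

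RNA of both glucose transporter genes rose in the same libraries, of which Slc2a3 passed the test beyond the untagged line. Slc2a3 read 106, 136 and 115 TPM untreated and 326, 321 and 343 TPM with auxin, a rise of 1.47 ± 0.12 (adjusted p = 9.86e-09). Slc2a1 read 514, 552 and 562 TPM untreated and 683, 756 and 721 TPM with auxin, a rise of 0.41 ± 0.05 (adjusted p = 1.47e-06). All auxin libraries exceeded all untreated ones in both genes, and 720 TPM was the highest group mean of Slc2a1. Pfkp rose from 8.63 to 13 TPM (0.56 ± 0.13, adjusted p = 0.003). Beyond the untagged line the differences of Slc2a1 (0.2 ± 0.07, adjusted p = 0.0784) and Pfkp (0.46 ± 0.19, adjusted p = 0.138) were not called. Pfkfb3 fell from 15.5 to 10.6 TPM (-0.52 ± 0.11, adjusted p = 0.000864). Slc2a3 and Pfkp were higher with auxin in both the AID-JARID2 and SUZ12-AID lines, and 10 members were lower in both, which is 10 of the 11 lower in the former and 10 of the 21 lower in the latter (90.9% and 47.6%). Over all genes these shares were 85.6% and 40.7%, close to those of the members. Pluripotent markers summed to 79 to 88 TPM untreated and 189 to 210 TPM with auxin (4 of 8 higher, 1 lower), neural progenitor markers to 905 to 1140 TPM and 559 to 624 TPM (6 of 8 lower, 1 higher), and neuron markers to 2170 to 2580 TPM and 690 to 775 TPM (8 of 8 lower). Nanog was 9.88 TPM untreated and 28 TPM with auxin, and the part of these changes in the result was not tested. Hif1a stood at 70.1 and 68.9 TPM and was not called.

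The untreated AID-JARID2 NPC already differed from untagged NPC. Here 7 members were higher and 5 lower, where 23.8% of all genes were called, 11.8% higher and 12% lower. Slc2a3, at 106 to 136 TPM against 34.9 to 41 TPM in untagged NPC, was higher by 1.65 ± 0.12 (adjusted p = 2.27e-09). Hk2 was higher by 0.58 ± 0.08, at 49.3 against 32.8 TPM (adjusted p = 1.05e-05), and Slc2a1 by 0.27 ± 0.05, at 543 against 449 TPM (adjusted p = 0.000206). Mxi1 was lower by -0.63 ± 0.1, at 12.7 against 19.9 TPM (adjusted p = 4.97e-05). Without AID-JARID2 untreated replicate 2 the count was 7 in place of 12. The markers differed as well, with pluripotent markers at 79 to 88 TPM against 37 to 43.2 TPM and neuron markers at 2170 to 2580 TPM against 3990 to 4270 TPM. Neural progenitor markers stood at 905 to 1140 TPM against 1570 to 1730 TPM, endoderm markers at 11.2 to 19.8 TPM against 1.77 to 2.39 TPM (5 of 5 tested higher) and mesoderm markers at 56.3 to 76.4 TPM against 34.5 to 42.5 TPM (3 of 5 higher), and the part of the markers was not tested.

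Untreated MTF2-AID NPC held less RNA of glycolytic enzymes and of the lactate exporter than untagged NPC. Untreated MTF2-AID NPC had 21 of the 40 members lower than untagged NPC and 0 higher, where 8.76% of all genes were called, 6.19% higher and 2.57% lower. The median log2 difference was -0.35 over the members and 0.04 over all genes. Of the 16 enzymes 10 were lower, of the 6 transport and flux genes 3, and of the 18 other targets 8. Tpi1 read 511, 493 and 487 TPM against 904, 902 and 963 TPM in untagged NPC, lower by -0.89 ± 0.07 (adjusted p = 3.58e-08). Ldha read 470, 517 and 466 TPM against 984, 1040 and 1060 TPM, lower by -1.09 ± 0.11 (adjusted p = 4.12e-06). Slc16a3 read 25.4, 35.3 and 22.9 TPM against 82, 81 and 78.5 TPM, lower by -1.54 ± 0.14 (adjusted p = 7.28e-07). In these genes every MTF2-AID library lay below every untagged one.

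Further down the list, Bnip3 was lower by -1.57 ± 0.2, at 18.5 against 56 TPM (adjusted p = 3.8e-05), and Pdk1 by -1.04 ± 0.14, at 9.3 against 19.6 TPM (adjusted p = 5.3e-05). Pgk1, phosphoglycerate kinase, stood at 296 against 474 TPM, and P4ha1 at 27.3 against 40.2 TPM. The targets Egln1 (65.1 against 72.6 TPM), Vegfa (54.9 against 63.1 TPM) and Higd1a (42.6 against 43.5 TPM) were not called, and neither were the glucose transporters Slc2a1 (463 against 449 TPM) and Slc2a3 (44.4 against 37.4 TPM). Whether the called and uncalled targets differ from each other was not tested. Summed pluripotent markers were 49.3 to 53.7 TPM against 37 to 43.2 TPM, neural progenitor markers 1520 to 1640 TPM against 1570 to 1730 TPM, and neuron markers 3810 to 3960 TPM against 3990 to 4270 TPM. Endoderm markers summed to 11.8 to 13.8 TPM against 1.77 to 2.39 TPM (4 of 5 tested higher) and mesoderm markers to 49.8 to 59 TPM against 34.5 to 42.5 TPM (1 of 5 higher, 1 lower), and the part of the markers was not tested. Of 37 further hypoxia targets 2 were higher and 4 lower, among them Fam162a, a mitochondrial protein, at 148 against 255 TPM, and Bhlhe40, a transcriptional repressor, at 4.09 against 9.9 TPM. Of 28 respiratory chain genes 3 were higher and 1 lower. Hif1a was 79.7 against 73.1 TPM and not called.

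A lower level was present already in MTF2-AID ESC for 14 members, with 3 higher, where 15.7% of all genes were called, 7.32% higher and 8.39% lower. Of the 14, 12 (85.7%) were also among the 21 lower in NPC, of which they are 57.1%. Over all genes 9.57% of those lower in ESC were lower in NPC, which is 31.3% of the latter. Both comparisons use untreated libraries of the same 2 lines at different stages. Bnip3 read 4.69, 5.66 and 7.83 TPM against 19, 12 and 16.9 TPM in untagged ESC, lower by -1.33 ± 0.19 (adjusted p = 4.37e-05). Ldha was lower by -0.31 ± 0.04, at 380 against 470 TPM (adjusted p = 6.75e-06), and Pfkm by -0.76 ± 0.08, at 23.2 against 39.5 TPM (adjusted p = 5.29e-07). Pdk1 was higher there, at 10.2 against 5.99 TPM (0.73 ± 0.11, adjusted p = 5.58e-05), the opposite of its place in NPC, so that its NPC to ESC difference in this line was -0.14 ± 0.13 (adjusted p = 0.324).

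With auxin, Ldha and Slc16a3 fell further in MTF2-AID NPC. There 1 member rose and 10 fell, where 8.14% of all genes were called, 5.03% higher and 3.11% lower, and the median log2 difference was -0.19 over the members and 0.03 over all genes. Of the 16 enzymes 6 fell, and of the 18 other targets 2 fell. Ldha read 470, 517 and 466 TPM untreated and 277, 290 and 292 TPM with auxin, a fall of 0.76 on the log2 scale (SE 0.11, adjusted p = 0.000347). Slc16a3 read 25.4, 35.3 and 22.9 TPM untreated and 14.9, 14.8 and 12 TPM with auxin, and fell by 0.96 ± 0.14 (adjusted p = 0.000309). Slc2a1 read 462, 484 and 443 TPM untreated and 372, 354 and 363 TPM with auxin, and fell by 0.35 ± 0.05 (adjusted p = 0.000112). The auxin libraries were below the untreated ones throughout, and Ldha with auxin was also below the 353 to 389 TPM of this line's ESC. Pfkl fell by 0.42 ± 0.09, from 87.8 to 65.5 TPM (adjusted p = 0.00379), and Pkm by 0.25 ± 0.05, from 2000 to 1690 TPM (adjusted p = 0.00422).

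Ndufa4l2 and Slc2a3 marked the extremes. Ndufa4l2 read 3.53, 6.71 and 2.6 TPM untreated and 0.512, 0 and 0 TPM with auxin, from 23 reads and 1 read. Corrected for depth, the ratio of auxin to untreated was 0.048 (exact 95% interval 0.00117 to 0.296, counting error only). Slc2a3 read 46.3, 49.5 and 37.4 TPM untreated and 78.4, 74.3 and 66.9 TPM with auxin, a rise of 0.72 ± 0.12 (adjusted p = 0.000803). Its change beyond that of the untagged line was 0.37 ± 0.17 and was not called (adjusted p = 0.323). Bnip3, at 18.5 and 11 TPM, had an adjusted p of 0.0226 and lost its call under 6 of 13 alternatives. Vegfa, Egln1, Ddit4 and Kdm3a, which fell in the SUZ12-AID and AID-JARID2 lines, were not called here, and the difference between the tagged lines was not tested. Summed neural progenitor markers went from 1520 to 1640 TPM to 1220 to 1340 TPM (5 of 8 lower), neuron markers from 3810 to 3960 TPM to 2770 to 2830 TPM (5 of 8 lower), and pluripotent markers from 49.3 to 53.7 TPM to 77 to 89 TPM (2 of 8 higher). Endoderm markers went from 11.8 to 13.8 TPM to 26.4 to 30 TPM (4 of 5 tested higher) and mesoderm markers from 49.8 to 59 TPM to 69.9 to 77.1 TPM (2 of 5 higher), and the part of the markers was not tested. Hif1a rose from 79.7 to 95.3 TPM (0.25 ± 0.07, adjusted p = 0.039), and its results under the alternatives are not given here.

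**Figure D3:**
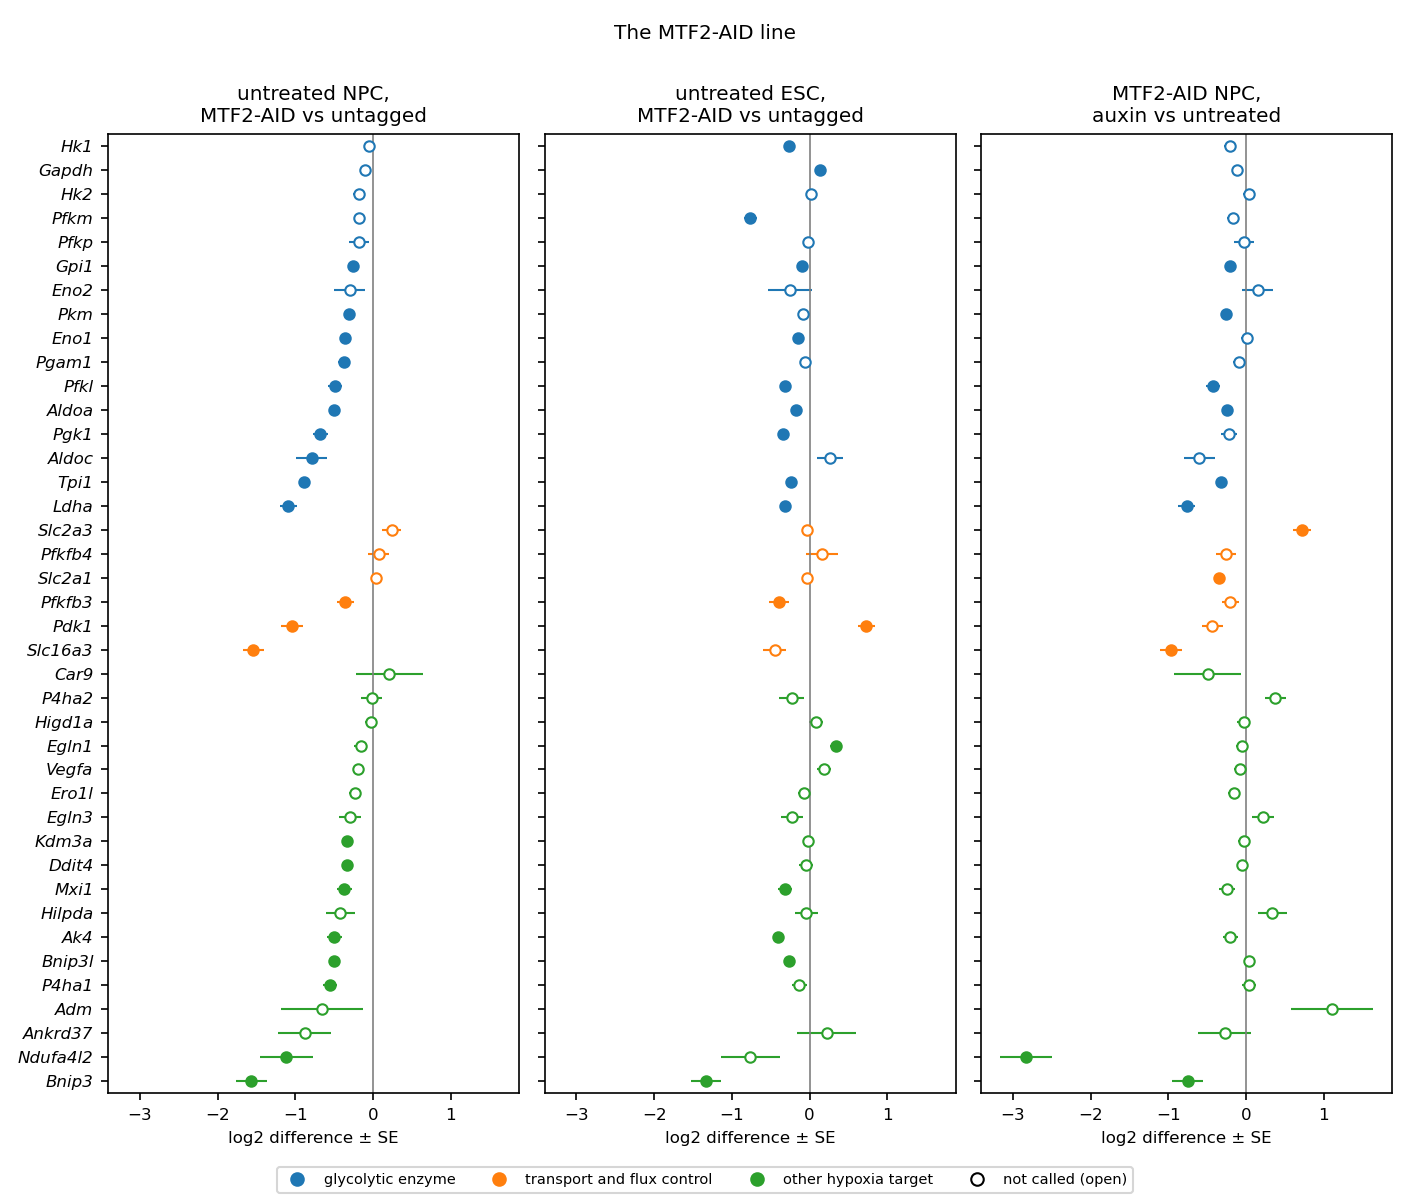
Log2 difference ± SE of the 40 members (limma, log2(TPM + 0.5)) for untreated MTF2-AID against untagged cells as NPC and as ESC, and for auxin against untreated MTF2-AID NPC; open circles were not called. Ldha, Tpi1 and Slc16a3 lie to the left of 0 in all panels, though Slc16a3 was not called in ESC, and Slc2a3 lies to the right in both NPC panels and was called with auxin.

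In untagged NPC auxin gave 0 called members of 40 by limma, where 0% of all genes were called, 0% higher and 0% lower. At an unadjusted p under 0.05 there were 4 members, and voom on the recovered reads called 1. Slc2a3 there read 36.3, 34.9 and 41 TPM untreated and 44.9, 48.6 and 50.4 TPM with auxin, ranges that do not overlap (0.36 ± 0.12, unadjusted p = 0.00768, adjusted p = 0.597). Slc2a1 read 471, 441 and 435 TPM untreated and 527, 505 and 527 TPM with auxin, and was not called. Because these untagged libraries are the shared control, the change beyond the untagged line was tested for each tagged line. In SUZ12-AID NPC 6 members were higher and 19 lower (43.5% of all genes, 18.8% higher and 24.7% lower). In MTF2-AID NPC 0 members were higher and 7 lower (1.4% of all genes, 1.07% higher and 0.328% lower). In AID-JARID2 NPC 1 member was higher and 9 lower (9.04% of all genes, 3.1% higher and 5.94% lower). Slc2a3 had a difference of 2.15 ± 0.18 in the first (adjusted p = 4.75e-09) and 1.12 ± 0.17 in the last (adjusted p = 0.000137). Scaling changed the SUZ12-AID split to 7 higher and 12 lower. The AID-JARID2 count of 10 was 5 without untagged NPC untreated replicate 2, and 6 without untagged NPC auxin replicate 2 or AID-JARID2 NPC untreated replicate 3.

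Within 12 hours in ESC few members responded. In untagged ESC limma called 0 of 38 tested members (0.212% of all genes, 0.0596% higher and 0.152% lower). There voom called 0, and an unadjusted p under 0.05 was found for 5 members. In SUZ12-AID ESC 3 rose and 3 fell (6.83% of all genes, 5.89% higher and 0.94% lower). In MTF2-AID ESC 2 rose and 1 fell (1.09% of all genes, 0.629% higher and 0.457% lower). In AID-JARID2 ESC 0 rose and 1 fell (0.298% of all genes, 0.113% higher and 0.185% lower). Pdk1 fell in all 3 tagged lines. In SUZ12-AID ESC it read 5.27, 5.58 and 6.23 TPM untreated and 3.23, 3.28 and 3.3 TPM with auxin (-0.71 ± 0.11, adjusted p = 0.000478). In MTF2-AID ESC it read 10.7, 9.69 and 10.3 TPM and 6.29, 5.83 and 6.41 TPM (-0.68 ± 0.11, adjusted p = 0.00241). In AID-JARID2 ESC it read 12.4, 10.5 and 11.1 TPM and 7.61, 8.48 and 6.81 TPM (-0.55 ± 0.11, adjusted p = 0.0272). The untagged line read 5.58, 6.8 and 5.58 TPM and 3.81, 4.85 and 4.68 TPM, also without overlap, but was not called (-0.39 ± 0.11, adjusted p = 0.26). Beyond the untagged line the Pdk1 difference was not called in any tagged line (adjusted p of 0.452, 0.872 and 1), and limma called 0 members there. The background in the SUZ12-AID line was 0.192% of all genes, 0.179% higher and 0.0132% lower, in the MTF2-AID line 0.00662% of all genes, 0.00662% higher and 0% lower, and in the AID-JARID2 line 0% of all genes, 0% higher and 0% lower. At an unadjusted p under 0.05 there were 4, 2 and 0 members in the SUZ12-AID, MTF2-AID and AID-JARID2 lines, and voom called 1, 0 and 0. With only the compared groups in the fit, the Pdk1 call was lost in MTF2-AID ESC (adjusted p = 0.0512) and AID-JARID2 ESC (adjusted p = 0.396). In the latter line it was also lost without untreated replicate 1 or 3 and without auxin replicate 1 or 3.

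Of the other ESC calls, that of Pfkfb3 was as large as those of Pdk1 and held under all 13 alternatives. Beyond the untagged line limma did not call Pfkfb3, nor any other member. In SUZ12-AID ESC Pfkfb3 read 4.76, 3.66 and 4.04 TPM untreated and 7.01, 7.81 and 7.01 TPM with auxin. This rise of 0.75 ± 0.13 (adjusted p = 0.00143) was in the direction opposite to its fall in NPC of that line. Ddit4, from 45.4 to 59 TPM, and Hk1, a widely expressed hexokinase, from 37.6 to 44.2 TPM, rose, while Eno1, from 1100 to 994 TPM, and Pfkp, from 48.5 to 41.8 TPM, fell. Each of these 4 lost its call without untreated replicate 2, and scaling gave 1 member higher and 5 lower. Leaving out SUZ12-AID ESC untreated replicate 2 left 2 calls, and leaving out replicate 3 left 3. In MTF2-AID ESC Ak4 rose from 81.4 to 97.2 TPM (0.25 ± 0.04, adjusted p = 0.00474), a call lost with only the compared groups in the fit, and scaling gave 1 higher and 2 lower.

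In untreated AID-JARID2 ESC 9 members were higher than in untagged ESC and 2 lower. Of all genes 6.31% were called, 3.09% higher and 3.22% lower. The 9 were Hk2, Gpi1, Pfkp, Tpi1, Gapdh, Ldha, Slc2a1, Slc2a3 and Pdk1, 6 of them enzymes. The abundant enzymes Pkm, Aldoa and Eno1 were not among them, and their highest ESC group mean was that of untreated untagged ESC. The 16 enzymes summed to 7990 to 8300 TPM against 7640 to 7880 TPM. Slc2a3 read 583, 539 and 570 TPM against 460, 442 and 457 TPM (0.32 ± 0.03, adjusted p = 1.36e-06), and Pdk1 12.4, 10.5 and 11.1 TPM against 5.58, 6.8 and 5.58 TPM (0.87 ± 0.11, adjusted p = 1.49e-05). Gapdh stood at 1250 against 987 TPM (0.34 ± 0.04, adjusted p = 2.2e-05). Each lay above the untagged range. Only 6 members were called when the fit held the compared groups alone. The untreated SUZ12-AID line was closest to the untagged one, with 0 higher and 3 lower in ESC (1.65% of all genes, 0.47% higher and 1.18% lower) and 0 higher and 2 lower in NPC (0.814% of all genes, 0.668% higher and 0.146% lower). Those were Hk1, Eno1 and Slc2a3 in ESC and Eno1 and Pkm in NPC, and all but Hk1 lost the call when single libraries were left out. The ESC count of 3 was 1 without untagged replicate 1 or 2 or SUZ12-AID replicate 1, and the NPC count of 2 was 0 without any 1 of the 3 untagged libraries or without SUZ12-AID replicate 1 or 2.

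**Figure D4:**
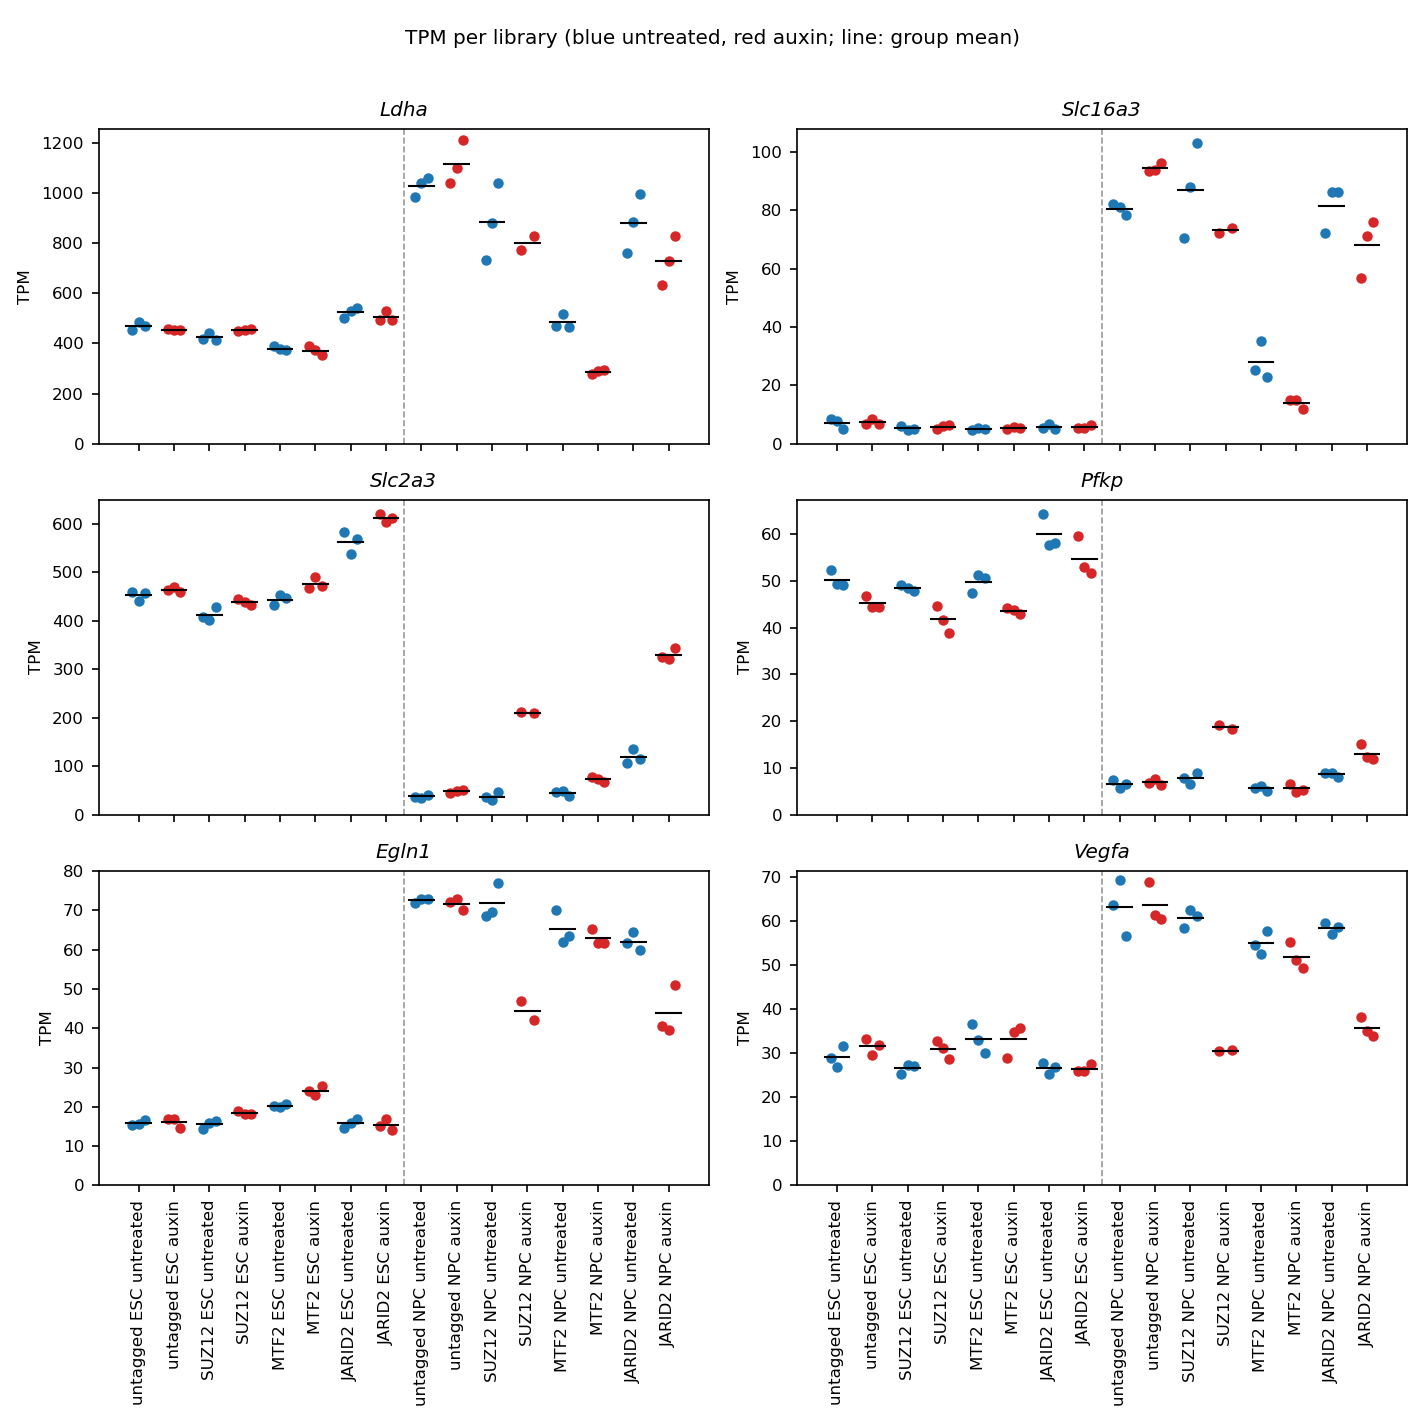
TPM of 6 members in every library by line, stage and treatment, with untreated in blue, auxin in red and the group mean as a line; the dashed line parts ESC from NPC. Slc2a3 in NPC reaches 209 to 212 TPM with auxin in the SUZ12-AID line and 321 to 343 TPM in the AID-JARID2 line, and Ldha in NPC is lowest in the MTF2-AID line.

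Some members were near the limit of detection. Car9 had 112 reads over all 47 libraries and at most 7 in 1 library. It was called in no comparison and, like Adm, was not tested in ESC fits because too few ESC libraries reached 1 TPM. Its NPC levels ran from 0.113 TPM in MTF2-AID with auxin to 1.29 TPM in AID-JARID2 with auxin, where the adjusted p against untreated was 0.086. In all, 33 of the 40 members were called with auxin in NPC of at least 1 tagged line (82.5%), against 61.2% of all genes tested.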

How the data were processed

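RNA of 47 libraries in 16 groups was measured by strand-specific sequencing of polyadenylated RNA. The authors deposited 1 table of TPM for 35856 gene symbols, each library summing to 1000000, and alignment used STAR 2.6.1d on mm10, per the submitters' processing notes. How reads were counted, on which strand and with which annotation, was not given in the sources used here. TPM steps gave whole reads for 100% of the 27296 genes above 0 (tolerance 0.001), at 3.24 to 8.71 M reads per library (median 5.39, 1 M is 1000000), and a depth interval covers counting error only.

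Genes with at least 1 TPM in 2 libraries entered limma fits (version 3.58.1, R 4.3.3, with trend and robust variance) on log2(TPM + 0.5), two-sided, with Benjamini-Hochberg adjustment over all genes and a threshold of 0.05. ESC (24 libraries) and NPC (23) were fitted separately, and stages in a fit of all 16 groups, for 24 comparisons. The test was tried on simulated data in which few genes changed, unlike SUZ12-AID NPC with auxin, and no result here rests on that trial. Alternatives were other pseudocounts, no filter, median-of-ratios scaling, compared groups only, a replicate block, leaving out each library and, chosen after seeing the data, voom on recovered reads. Group labels that conflict (day 0 in some NPC titles) were resolved by source and exposure length. Deviations of same-numbered libraries correlated at -0.04 to 0.09, and the main fits held no replicate block.

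The members and gene lists were chosen with earlier results of these data known. Any member may be named; full statistics go to up to 3 called members of smallest p per role and direction, and up to 3 of each other list, besides named HIF regulators and degron targets. Positions come from GENCODE for GRCm38 and promoters from RefSeq.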

Additional observations from a re-analysis of the deposited data

Results flagged for a closer look

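The change with auxin in a tagged line was tested against the change in the untagged line, as an interaction term in limma over all genes. In NPC 42 differences passed the threshold over the 3 tagged lines, with some members counted in more than 1 line. The 3 lines share the untagged libraries as control, so their values are not independent of each other. Values are differences of log2 differences, on log2(TPM + 0.5). In SUZ12-AID NPC the change lay above that of the untagged line for Pfkp (1.13), Aldoa (0.34), Slc2a3 (2.15), P4ha2 (0.91), Adm (3.17) and Ak4 (0.56). In SUZ12-AID NPC the change lay below that of the untagged line for Gpi1 (-0.22), Pfkl (-0.33), Pfkm (-0.32), Tpi1 (-0.54), Gapdh (-0.24), Pgk1 (-0.42), Pkm (-0.21), Slc2a1 (-0.37), Pfkfb3 (-0.61), Pfkfb4 (-1.38), Bnip3l (-0.51), Ndufa4l2 (-1.35), Vegfa (-0.99), Egln1 (-0.67), Ero1l (-0.41), P4ha1 (-0.39), Kdm3a (-0.68), Ddit4 (-0.7) and Mxi1 (-0.89). In MTF2-AID NPC the change lay below that of the untagged line for Gpi1 (-0.27), Pfkl (-0.6), Pkm (-0.3), Ldha (-0.87), Slc2a1 (-0.56), Slc16a3 (-1.19) and Ndufa4l2 (-2.75). In AID-JARID2 NPC the change lay above that of the untagged line for Slc2a3 (1.12). In AID-JARID2 NPC the change lay below that of the untagged line for Pfkl (-0.41), Pfkfb3 (-0.64), Bnip3 (-1.02), Vegfa (-0.72), Egln1 (-0.49), Kdm3a (-0.31), Ddit4 (-0.53), Mxi1 (-0.48) and Higd1a (-0.4). Pfkl was itself not called with auxin in SUZ12-AID or AID-JARID2 NPC. Its highest group mean, 140 TPM, was that of untagged NPC with auxin. Adm rests on few reads, and its difference in SUZ12-AID NPC had an adjusted p of 0.0761 with a pseudocount of 0.1 against 0.00286 with 0.5. Ndufa4l2 rests on few reads too. Under median-of-ratios scaling the call was lost for Gpi1, Pfkl, Pfkm, Gapdh, Pgk1, Pkm and P4ha1 in SUZ12-AID NPC, for Pkm in MTF2-AID NPC and for Pfkl and Higd1a in AID-JARID2 NPC. Over 19 alternatives Gpi1 in MTF2-AID NPC lost its call in 11 and Pfkl in AID-JARID2 NPC in 10.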

How the results depend on the processing

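Counts of called members were compared over the alternatives, and of 172 differences given with full statistics none changed sign. Outside these, scaling turned 5 called NPC against ESC differences: Gapdh (0.16 to -0.18) and Eno1 (0.15 to -0.19) in the untagged line, Pkm in the SUZ12-AID (0.24 to -0.18) and MTF2-AID (0.17 to -0.19) lines, and Gapdh in the AID-JARID2 line (0.13 to -0.2). With only the compared groups in the fit 18 of the 172 lost their call, with median-of-ratios scaling 14, with no filter 13, with voom on recovered reads 7, with a pseudocount of 0.1 2 and with a pseudocount of 1 0. Leaving out single libraries took the call from 29 at least once. With voom the count was 11 in place of 6 for auxin in SUZ12-AID ESC, 2 in place of 1 in AID-JARID2 ESC, 1 in place of 0 in untagged NPC, 1 in place of 0 for SUZ12-AID ESC beyond untagged, 5 in place of 3 for untreated SUZ12-AID ESC and 1 in place of 2 for untreated SUZ12-AID NPC. With only the compared groups it was 0 for auxin in MTF2-AID ESC (3) and AID-JARID2 ESC (1), 1 for untreated SUZ12-AID ESC (3), 6 for untreated AID-JARID2 ESC (11) and 0 for untreated SUZ12-AID NPC (2). With scaling it was 1 for untreated SUZ12-AID ESC and 0 for untreated SUZ12-AID NPC, and with no filter 0 for the latter. The cause was not tested. Leaving out single libraries gave 2 to 5 for auxin in SUZ12-AID ESC, 0 to 1 in AID-JARID2 ESC, 5 to 9 for AID-JARID2 NPC beyond untagged, 1 to 2 for untreated SUZ12-AID ESC, 0 to 3 for untreated SUZ12-AID NPC and 7 to 10 for untreated AID-JARID2 NPC. Depth limits Adm, Car9 and Ndufa4l2.

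With the replicate number as a block, 20 members were called in place of 14 for auxin in AID-JARID2 NPC, 27 in place of 29 in SUZ12-AID NPC (30 with the numbers of the library names) and 13 in place of 11 in MTF2-AID NPC, and 1 of 172 named differences lost its call. Deviations of libraries of the same number correlated at -0.04 to 0.09. For auxin in AID-JARID2 NPC each of 3 correlated best with its own number. The same held for untagged NPC against ESC, and for untreated SUZ12-AID ESC and untreated MTF2-AID NPC against untagged.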
